A study of Saccharomyces cerevisiae with 21 samples.

Results

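The genes described here were chosen by symbol (MRP, MRPL, MRPS or RSM followed by a number). Such symbols are used for proteins of the mitochondrial ribosome of Saccharomyces cerevisiae. Of the 5449 genes measured, 66 had such a symbol, and 1 further gene of that pattern, MRP35, had no named probe set. The 7 members on chromosome II (systematic names beginning with YB) are described apart from the 59 that lie elsewhere. Among the 59, 24 belong to the small subunit, 33 belong to the large subunit, and MRP8 and RSM22 carry no ribosomal protein name. MRP8 and RSM22 are thus members by symbol alone.

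Mitochondrial ribosomal proteins are encoded in the nucleus, made in the cytosol and imported. The ribosome they form with mitochondrial rRNA translates the few messages of the mitochondrial genome, most of which encode membrane subunits of the respiratory chain and the ATP synthase. Some of the proteins have bacterial counterparts (unified names beginning with u or b) and others are found only in mitochondria (names beginning with m).

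The study asked how loss of Gal11 (also called Med15) and Med3 changes transcript levels, these being subunits of the tail of Mediator, a coactivator of RNA polymerase II whose tail binds gene-specific activators. Cells were harvested in mid-log phase at 30 °C in rich medium (YPD) or complete synthetic medium (CSM), and their total RNA was hybridised to 21 Affymetrix arrays, 3 for each of 7 groups. The gal11Δ med3Δ strain is MATα, carries med3Δ::kanMX4 and med15Δ::kanMX4, and has the markers his3Δ1, leu2Δ0, met15Δ0 and ura3Δ0. The gal11-myc med3Δ strain is MATa and carries GAL11-13MYC::HIS3MX, med3Δ::URA3, his3Δ1, leu2Δ0, ura3Δ0 and srb4Δ::kanMX covered by plasmid RY2844 (CEN LEU2 SRB4). The wild type is MATa his3Δ1 leu2Δ0 met15Δ0 ura3Δ0 and is called BY4741 in the authors' deposited table. These 3 strains were grown in both media, and a BY4742 strain, labelled MATa his3Δ1 leu2Δ0 lys2Δ0 ura3Δ0, was grown in YPD only and here serves only the estimate of spread. The mutants therefore differ from the wild type in more than Gal11 and Med3, and the number of arrays limits the precision.

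The targeted genes followed the labels. GAL11 differed from the wild type by -6.43 in YPD and -5.62 in CSM (log2) in gal11Δ med3Δ, and by -0.59 and -0.55 in gal11-myc med3Δ, which keeps a tagged copy. PGD1, the gene of Med3, differed by -4.51 and -4.26 in gal11Δ med3Δ and by -4.30 and -4.05 in gal11-myc med3Δ. All 7 markers of a cells were lower and all 5 markers of alpha cells were higher in gal11Δ med3Δ than in the wild type in both media, so mating type and loss of the tail cannot be told apart in that strain. LYS2 was lower, at -6.50 in YPD and -6.88 in CSM in gal11Δ med3Δ, although its label lists no lys2 allele. LEU2, the plasmid marker of gal11-myc med3Δ, stood at 4.67, 4.05 and 1.54 on that strain's YPD arrays 1, 2 and 3. On its CSM arrays LEU2 stood at 4.67, 4.58 and 4.74. The cause of the lower value on YPD array 3 was not tested. The deposited values are log2 and are centred for each probe set on its median over the 9 arrays of a medium, so they show differences between strains within a medium and no level. Array by array, gal11Δ med3Δ CSM array 1 stood apart (relative array weight 0.0755), as did wild type YPD array 3 (0.119), BY4742 YPD array 1 (0.146), gal11-myc med3Δ YPD array 3 (0.159) and gal11Δ med3Δ YPD array 3 (0.249). Called values of named members that lost the call or moved by over 1.5 times without one of the compared arrays among these are given without it as well. The labels do not say that replicates came from separate cultures, so the p-values set differences against a spread between arrays that may be technical.

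The 7 members on chromosome II were all lower in both mutants than in the wild type in CSM. Their median difference was -0.87 (log2) in gal11Δ med3Δ and -0.82 in gal11-myc med3Δ, and all 7 passed the test in each mutant (limma, adjusted p under 0.05 over all 5449 genes, a threshold used throughout at any size of difference). Of all genes, 18.4% were called lower in gal11Δ med3Δ and 14.2% in gal11-myc med3Δ. The groups did not overlap for any of the 7 in either mutant, against 24% and 27.6% of all genes that were lower without overlap. In CSM the arrays of both mutants lay near 0 for each of the 7 genes and the 3 wild type arrays lay well above. In YPD only MRPL16 was called, and it was higher in both mutants; with the replicate number as a block MRPL36 passed as well in gal11-myc med3Δ (0.19, limma adjusted p = 0.0451).

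**Figure D1:**
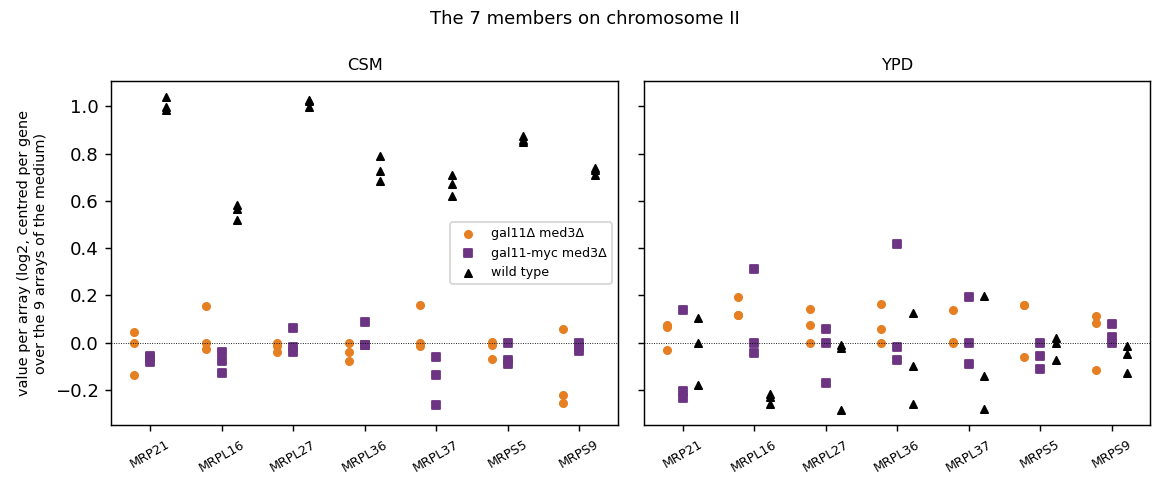
Deposited value (log2, centred per gene over the 9 arrays of the medium) of each chromosome II member on each array, with CSM on the left and YPD on the right; circles are gal11Δ med3Δ, squares gal11-myc med3Δ and triangles wild type, 3 arrays each. In CSM every wild type array sits above every mutant array for all 7 genes, between 0.52 and 1.04; in YPD the strains overlap for most genes, MRPL16 being the one whose wild type arrays (-0.26 to -0.22) all lie below both mutants.

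Among the small subunit proteins, MRP21 (YBL090W, bS21m) stood at -0.14, 0.00 and 0.04 on the gal11Δ med3Δ arrays in CSM and at -0.07, -0.08 and -0.06 on the gal11-myc med3Δ arrays, against 0.996, 1.04 and 0.98 in the wild type. Its transcript was thus about 1 log2 unit lower in each mutant, with differences of -1.04 ± 0.09 (SE, limma adjusted p = 3.87e-08) and -1.08 ± 0.09 (adjusted p = 5.72e-08), or 0.487-fold and 0.475-fold. MRPS5 (YBR251W, uS5m, whose bacterial counterpart lines the path by which mRNA enters the ribosome) stood at -0.01, -0.07 and 0.00 in gal11Δ med3Δ and at -0.09, -0.07 and 0.00 in gal11-myc med3Δ, against 0.85, 0.86 and 0.87 in the wild type. The wild type arrays of MRPS5 were tightly grouped and far from both mutants, which differed by -0.89 ± 0.06 and -0.91 ± 0.06. MRPS9 (YBR146W, uS9m, whose bacterial counterpart reaches towards the P site tRNA) stood at 0.06, -0.22 and -0.26 in gal11Δ med3Δ and at 0.00, -0.04 and -0.02 in gal11-myc med3Δ, against 0.73, 0.71 and 0.74 in the wild type. Here gal11Δ med3Δ array 1 was higher than its fellows but still below the wild type, and the differences were -0.87 ± 0.07 and -0.74 ± 0.07.

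In the large subunit, MRPL27 (YBR282W, mL41) stood at -0.01, -0.04 and 0.00 in gal11Δ med3Δ and at -0.04, -0.02 and 0.06 in gal11-myc med3Δ, against 1.02, 0.998 and 1.03 in the wild type. It was lower by a similar amount to MRP21, with -1.03 ± 0.07 (limma adjusted p = 4.18e-09, 0.488-fold) and -1.02 ± 0.07 (adjusted p = 1.19e-08, 0.494-fold). These 2 genes were the only members past a 2-fold difference in any comparison with the wild type, and they were so in CSM in both mutants (4.22% of all genes were called 2-fold lower in gal11Δ med3Δ and 3.27% in gal11-myc med3Δ). MRPL36 (YBR122C, bL31m) stood at -0.08, -0.04 and 0.00 in gal11Δ med3Δ and at -0.01, -0.01 and 0.09 in gal11-myc med3Δ, against 0.79, 0.69 and 0.73 in the wild type, differences of -0.77 ± 0.11 and -0.71 ± 0.11. MRPL37 (YBR268W, mL54) stood at 0.16, 0.00 and -0.01 in gal11Δ med3Δ and at -0.14, -0.26 and -0.06 in gal11-myc med3Δ, against 0.71, 0.67 and 0.62 in the wild type. All its gal11-myc med3Δ arrays lay below all its gal11Δ med3Δ arrays, and the differences from the wild type were -0.82 ± 0.10 in gal11-myc med3Δ and -0.62 ± 0.10 in gal11Δ med3Δ.

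MRPL16 (YBL038W, uL16m, whose bacterial counterpart contacts the A site tRNA) was the 1 chromosome II member with opposite calls in the media. In CSM it stood at 0.16, -0.03 and 0.00 in gal11Δ med3Δ and at -0.08, -0.13 and -0.04 in gal11-myc med3Δ, against 0.52, 0.58 and 0.57 in the wild type, and it was lower by the smallest fold of the 7 genes in each mutant (0.701-fold and 0.643-fold). In YPD it stood at 0.19, 0.12 and 0.12 in gal11Δ med3Δ and at 0.00, -0.04 and 0.31 in gal11-myc med3Δ, against -0.26, -0.22 and -0.23 in the wild type. No wild type array in YPD reached any mutant array, and the differences were 0.38 ± 0.08 (limma adjusted p = 0.000809) and 0.32 ± 0.08 (adjusted p = 0.00389). Without gal11-myc med3Δ YPD array 3, the highest of its arrays, the difference of MRPL16 in gal11-myc med3Δ in YPD was 0.21 (limma adjusted p = 0.0179).

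The 7 genes moved with their chromosome. Of the 387 genes measured on chromosome II, 303 (78.3%) were called lower in gal11Δ med3Δ and 316 (81.7%) in gal11-myc med3Δ in CSM, with medians of -0.72 and -0.74, whereas the medians of the 14 chromosomes other than II and V lay between 0.036 and 0.12 in gal11Δ med3Δ and between 0.058 and 0.15 in gal11-myc med3Δ. Both arms took part: on the left arm, which carries MRP21 and MRPL16, 83 of 105 and 85 of 105 genes were called lower, and on the right arm, which carries the other 5 members, 220 of 282 and 231 of 282. The median over chromosome II genes was 0.00, -0.04 and -0.08 on the gal11Δ med3Δ CSM arrays and -0.06, -0.07 and -0.01 on the gal11-myc med3Δ CSM arrays, against 0.61, 0.61 and 0.65 on the wild type CSM arrays. In YPD the chromosome's medians differed from the wild type by 0.03 and 0.02. The cause of this chromosome-wide difference was not tested, and since values are centred within a medium they do not show whether the wild type or the mutants depart from the YPD state.

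Subtracting from each array the median of the gene's own chromosome, a step added after the chromosome-wide difference was seen, left a smaller difference for some of the 7 members and none that passed the test for others. In gal11Δ med3Δ, MRP21 was lower, at -0.38 (limma adjusted p = 0.00307), MRPL27 at -0.37 (adjusted p = 0.000484), MRPS5 at -0.23 (adjusted p = 0.00649) and MRPS9 at -0.21 (adjusted p = 0.0224) relative to the other genes of the chromosome. Differences of -0.11 for MRPL36, 0.04 for MRPL37 and 0.15 for MRPL16 did not pass. In gal11-myc med3Δ, MRP21 (-0.40, adjusted p = 0.00246), MRPL27 (-0.35, adjusted p = 0.00134) and MRPS5 (-0.24, adjusted p = 0.00517) were lower and the other 4 did not pass. On the same relative scale 117 of the 387 chromosome II genes were lower in gal11Δ med3Δ and 109 in gal11-myc med3Δ.

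**Figure D2:**
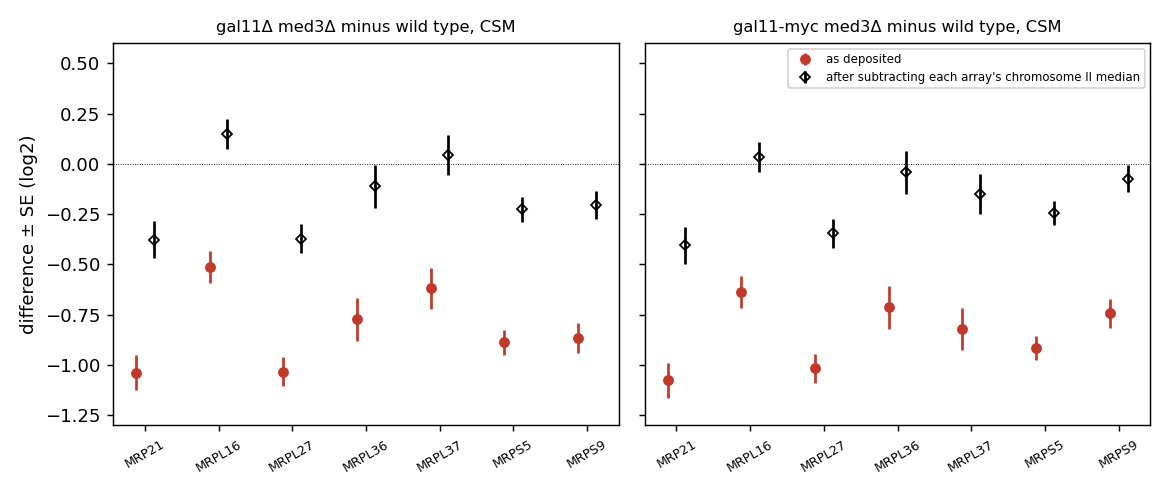
Difference from the wild type in CSM (log2, ± SE) for each chromosome II member in gal11Δ med3Δ (left) and gal11-myc med3Δ (right), as deposited (filled circles) and after subtracting each array's median over chromosome II genes (open diamonds). All filled circles lie between -1.08 and -0.51; after the subtraction MRP21 and MRPL27 lie between -0.40 and -0.35 in both mutants while MRPL16 and MRPL37 lie between -0.15 and 0.15.

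RSM18 (YER050C, bS18m of the small subunit), the only member on chromosome V, was higher in gal11Δ med3Δ in YPD and in no other comparison with the wild type. It stood at 0.92, 0.90 and 0.80 in gal11Δ med3Δ and at -0.19, -0.21 and 0.00 in gal11-myc med3Δ, against -0.18, -0.06 and 0.00 in the wild type. The 3 gal11Δ med3Δ arrays lay far above all others, and the difference from the wild type was 0.96 ± 0.09 (limma adjusted p = 2.80e-07, 1.94-fold). In CSM the 3 strains overlapped, with -0.29, 0.03 and 0.18 in gal11Δ med3Δ and at -0.02, 0.05 and -0.03 in gal11-myc med3Δ, against -0.06, 0.00 and 0.00 in the wild type. The effect in gal11Δ med3Δ differed between CSM and YPD by -0.96 ± 0.13 (interaction, adjusted p = 2.70e-05), and in YPD gal11-myc med3Δ was below gal11Δ med3Δ by -1.01 ± 0.09 (adjusted p = 4.09e-07).

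This gene too moved with its chromosome. In gal11Δ med3Δ in YPD, 217 of the 259 genes of chromosome V (83.8%) were called higher, with a median of 0.79, against 0.16 in gal11Δ med3Δ in CSM and 0.04 and 0.07 in gal11-myc med3Δ in YPD and CSM. The median over the chromosome's genes was 0.65, 0.62 and 0.65 on the gal11Δ med3Δ YPD arrays and -0.07, -0.08 and -0.08 on the gal11-myc med3Δ YPD arrays, against -0.09, -0.07 and -0.10 on the wild type YPD arrays. After subtraction of the chromosome's median from each array, RSM18 was 0.23 ± 0.11 higher in gal11Δ med3Δ than in the wild type in YPD and did not pass the test (limma adjusted p = 0.0981). Its interaction in gal11Δ med3Δ was then -0.36 (adjusted p = 0.103) and its difference between the mutants in YPD was -0.29 (adjusted p = 0.0976). Neither passed. The cause of the difference along chromosome V was not tested.

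**Figure D3:**
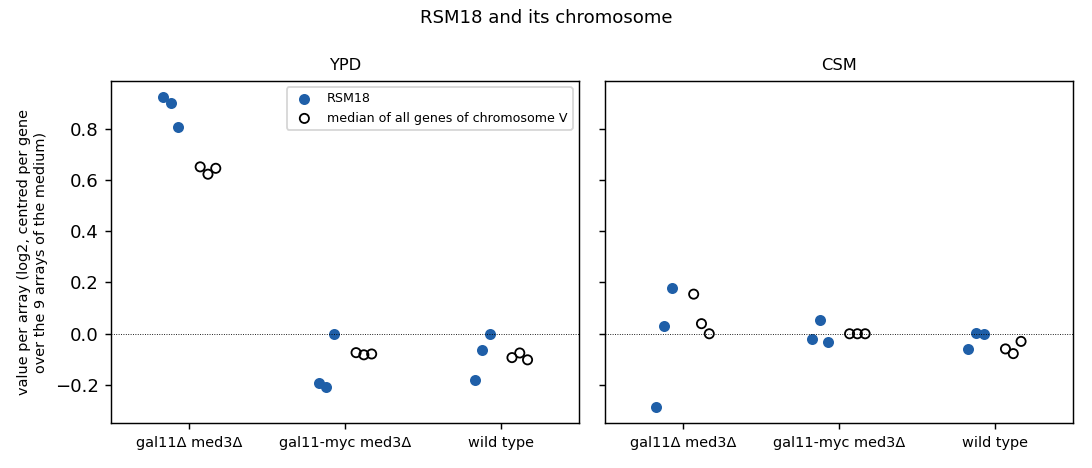
RSM18 (filled) and the median of all genes of chromosome V (open) on each array (log2, centred per gene over the 9 arrays of the medium), in YPD (left) and CSM (right), for gal11Δ med3Δ, gal11-myc med3Δ and wild type. Only the 3 gal11Δ med3Δ arrays in YPD stand apart, at 0.80 to 0.92 for RSM18 and 0.62 to 0.65 for the chromosome.

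The 59 members outside chromosome II were shifted slightly upward in gal11Δ med3Δ in YPD. Their median was 0.11, 0.11 and 0.00 on the gal11Δ med3Δ YPD arrays, against -0.14, -0.05 and 0.00 on the wild type YPD arrays. Array 3 thus had the same median in both strains, and the shift of the median lay in arrays 1 and 2. Of the 59, 18 were called higher and 1 lower, against 27.5% and 19.4% of all genes, and the median difference was 0.12 against 0.028 over all genes. The count of higher members is close to the share over all genes, whereas the single lower member is well below it. Leaving out RSM18, 17 of 58 were higher and 1 lower with a median of 0.12, against 1183 and 968 of the 4803 genes outside chromosomes II and V with a median of 0.0030. The difference was above 0 for 49 of the 59, against 2675 of the 5062 genes outside chromosome II. The members share the same arrays, so their signs are not independent. The arrays did not overlap for 20 higher and 2 lower members (29.3% and 23.1% of all genes). In the small subunit 9 of 24 were higher and 1 lower (median 0.12), and in the large subunit 8 of 33 were higher and 0 lower (median 0.15). Of the members with a bacterial counterpart 12 of 35 were higher (median 0.16), and of those found only in mitochondria 5 of 22 were higher and 1 lower (median 0.083). Without wild type YPD array 1 the higher count was 10, without gal11Δ med3Δ YPD array 1 it was 12, and without array 3 of the wild type or of gal11Δ med3Δ, which stood apart, it was 21 or 20. Fitting only the compared groups gave 10 higher and 0 lower, against 21.9% and 14.1% of all genes in that fit, and array weights gave 45 and 2, against 37.5% and 30.2%.

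**Figure D4:**
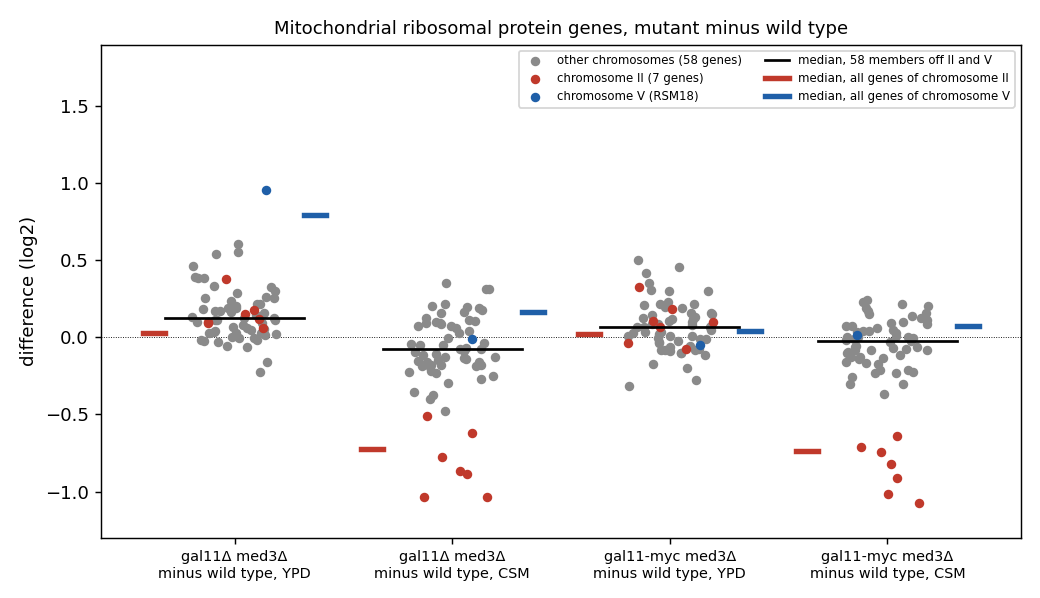
Difference from the wild type (log2) of each of the 66 members in the 4 comparisons; each point is a gene, coloured by whether it lies on chromosome II, chromosome V or elsewhere, black lines are medians of the 58 members off chromosomes II and V, and coloured dashes are medians of all genes of chromosomes II and V. The 58 members centre on 0.12 in gal11Δ med3Δ in YPD and on -0.076 in CSM, the chromosome II members drop to between -1.08 and -0.51 in CSM in both mutants, and RSM18 stands at 0.96 in 1 comparison.

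MRP8 (YKL142W), a member by symbol alone, had the largest difference from the wild type off chromosomes II and V. In YPD it stood at 0.20, 0.13 and 0.12 in gal11Δ med3Δ and at 0.00, -0.01 and 0.13 in gal11-myc med3Δ, against -0.46, -0.68 and -0.24 in the wild type. The wild type arrays were spread but all lay below both mutants, with differences of 0.61 ± 0.11 (limma adjusted p = 0.000262, 1.52-fold) in gal11Δ med3Δ and 0.50 ± 0.11 (adjusted p = 0.00215) in gal11-myc med3Δ. In CSM it was also higher in gal11Δ med3Δ, by 0.32 ± 0.11 (adjusted p = 0.0265). Its effect in gal11Δ med3Δ differed between CSM and YPD by -0.29, which did not pass (adjusted p = 0.170, but 0.0494 with the replicate number as a block).

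MRPL28 (YDR462W, mL40 of the large subunit) was higher in both mutants in YPD only. It stood at 0.19, 0.10 and 0.03 in gal11Δ med3Δ and at 0.00, -0.16 and 0.08 in gal11-myc med3Δ, against -0.51, -0.46 and -0.37 in the wild type. In YPD the wild type arrays lay below all arrays of both mutants, and MRPL28 rose by 0.55 ± 0.09 (limma adjusted p = 7.15e-05) and 0.42 ± 0.09 (adjusted p = 0.00142). In CSM, at 0.13, -0.21 and 0.00 in gal11Δ med3Δ and at -0.04, -0.06 and 0.00 in gal11-myc med3Δ against 0.04, 0.04 and 0.00 in the wild type, it did not pass the test. The effect of each mutant differed between the media, by -0.60 ± 0.12 (interaction, adjusted p = 0.00137) in gal11Δ med3Δ and -0.48 ± 0.12 (adjusted p = 0.0149) in gal11-myc med3Δ.

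RSM7, RSM10 and RSM19, small subunit proteins with bacterial counterparts, were among the higher members. RSM7 (YJR113C, uS7m, in bacteria a primary binder of rRNA in the subunit's head) stood at 0.33, 0.41 and 0.22 in gal11Δ med3Δ, against -0.18, 0.00 and -0.49 in the wild type, in YPD. It rose by 0.54 ± 0.11 (limma adjusted p = 0.000659) in gal11Δ med3Δ, whereas the 0.23 ± 0.11 in gal11-myc med3Δ did not pass (adjusted p = 0.124). The difference between the mutants in YPD was -0.31 ± 0.11 and did not pass either (adjusted p = 0.0626), but it passed with the replicate number as a block (adjusted p = 0.0496). RSM10 (YDR041W, uS10m) rose by 0.39 (adjusted p = 0.000889) and 0.35 (adjusted p = 0.00283). RSM19 (YNR037C, uS19m) rose by 0.46 (adjusted p = 0.000752) in gal11-myc med3Δ and by 0.26 (adjusted p = 0.0232) in gal11Δ med3Δ, where its arrays overlapped those of the wild type and the call was lost without wild type YPD array 3 (0.21, adjusted p = 0.0880).

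In gal11-myc med3Δ in YPD, 8 of the 59 members outside chromosome II were higher and 3 lower, against 21.2% and 12.1% of all genes, and their median was 0.066 against 0.027 over all genes. The arrays did not overlap for 12 higher and 3 lower members (24.6% and 17.4% of all genes). In the small subunit 4 of 24 were higher and 1 lower, and in the large subunit 3 of 33 were higher and 1 lower. MRPL39 (YML009C, bL33m) rose by 0.30 (limma adjusted p = 0.0265), and MRP10 (YDL045W-A, mS37) by 0.22 (adjusted p = 0.0278, but 0.0507 with the replicate number as a block). Both calls were lost without gal11-myc med3Δ YPD array 3, at 0.16 for MRPL39 (limma adjusted p = 0.159) and 0.18 for MRP10 (adjusted p = 0.112). The lower members were RSM26 (YJR101W, mS42) at -0.31 (adjusted p = 0.0134, but -0.21 and 0.0673 without wild type YPD array 3), RSM22 (YKL155C, a methyltransferase-like protein of small subunit assembly) at -0.28 (adjusted p = 0.00337) and MRPL35 (YDR322W, mL38) at -0.20 (adjusted p = 0.00694). In gal11Δ med3Δ the single lower member in YPD was MRPS35 (YGR165W, mS45), at -0.12, -0.05 and -0.24, against 0.05, 0.16 and 0.07 in the wild type, a difference of -0.23 ± 0.06 (adjusted p = 0.00867). Without wild type YPD array 1 or gal11-myc med3Δ YPD array 3, which stood apart, the higher count in gal11-myc med3Δ was 5, and without the same gal11-myc med3Δ array 5 were lower.

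In CSM the members outside chromosome II leaned the other way in gal11Δ med3Δ. Their median was -0.03, -0.04 and 0.00 on the gal11Δ med3Δ CSM arrays, against 0.04, 0.00 and 0.00 on the wild type CSM arrays. The array medians of the strains thus touched at 0.00. Of the 59, 13 were lower and 5 higher, against 18.4% and 27.1% of all genes, or 701 and 1458 of the 5062 genes outside chromosome II (13.8% and 28.8%). The median difference of the 59 was -0.075 against 0.045 over all genes, and 37 of the 59 differences were below 0. Of these, 9 were below 0 in both media and 28 in CSM alone, against 1393 and 696 of the 5062 genes outside chromosome II. The arrays did not overlap for 19 lower and 7 higher members (24% and 34.2% of all genes). In the small subunit 8 of 24 were lower and 0 higher, and in the large subunit 5 of 33 were lower and 4 higher. Without gal11Δ med3Δ CSM array 1, which stood apart, 11 were lower and 11 higher, with a median of -0.050. The lower count was 7 without wild type CSM array 1, wild type CSM array 2 or gal11Δ med3Δ CSM array 2, and the higher count was 2 or 3 without wild type CSM array 2 or 3 or gal11Δ med3Δ CSM array 2 or 3.

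MRP4 (YHL004W, uS2m of the small subunit) had the lowest of these differences. In CSM it stood at -0.10, -0.31 and -0.35 in gal11Δ med3Δ and at 0.04, 0.00 and 0.00 in gal11-myc med3Δ, against 0.24, 0.21 and 0.23 in the wild type. The 3 strains formed 3 separate bands, with the wild type highest, and MRP4 differed from it by -0.48 ± 0.06 in gal11Δ med3Δ (limma adjusted p = 1.08e-05) and by -0.21 ± 0.06 in gal11-myc med3Δ (adjusted p = 0.0153). In YPD the differences were -0.05 and -0.06 and did not pass.

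MRPL7 (YDR237W, uL5m, which in bacteria joins the central protuberance) stood at -0.18, -0.17 and -0.13 in gal11Δ med3Δ, against 0.29, 0.22 and 0.21 in the wild type, in CSM. It was lower, at -0.40 ± 0.07 (limma adjusted p = 0.000219), and also in gal11-myc med3Δ, at -0.23 ± 0.07 (adjusted p = 0.0173). MRPL1 (YDR116C, uL1m, the protein of the L1 stalk) was lower, at -0.27 (adjusted p = 0.00934) and -0.30 (adjusted p = 0.00600), and RSM26 at -0.37 in both mutants (adjusted p = 0.00291 and 0.00418).

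The members called higher in gal11Δ med3Δ in CSM were fewer. MRPL39 stood at 0.14, 0.31 and 0.33 in gal11Δ med3Δ, against 0.00, -0.14 and -0.13 in the wild type, and was higher by 0.35 (limma adjusted p = 0.00729), as it was in YPD by 0.33 (adjusted p = 0.0121). MRPL10 (YNL284C, uL15m) was higher by 0.31 (adjusted p = 0.00157) and in gal11-myc med3Δ by 0.20 (adjusted p = 0.0327). MRPL32 (YCR003W, bL32m), which the m-AAA protease of the inner membrane matures, stood at 0.23, 0.11 and 0.20 in gal11Δ med3Δ and at -0.17, -0.16 and 0.00 in gal11-myc med3Δ, against 0.00, -0.08 and -0.05 in the wild type. It was higher than the wild type in gal11Δ med3Δ alone, by 0.22 ± 0.08 (adjusted p = 0.0336, but 0.0811 without gal11Δ med3Δ CSM array 1), and gal11-myc med3Δ was below gal11Δ med3Δ by -0.28 (adjusted p = 0.0204).

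In gal11-myc med3Δ in CSM, 7 of the 59 members outside chromosome II were lower and 2 higher, against 14.2% and 22.4% of all genes, or 9.01% and 23.9% of genes outside chromosome II. Their median was -0.016 against 0.061 over all genes. Beside those named above, MRPL20 (YKR085C, mL58) was lower, at -0.30 (limma adjusted p = 0.0264) and MRPL35 at -0.14 (adjusted p = 0.0400), and the 2 higher members were MRPL10 and MRP10 (0.23, adjusted p = 0.0201). The arrays did not overlap for 19 lower and 10 higher members, against 27.6% and 43.1% of all genes. The counts were sensitive to single arrays: 3 were lower without wild type CSM array 1, 4 without wild type CSM array 3 or gal11-myc med3Δ CSM array 2, and 0 were higher without wild type CSM array 2, wild type CSM array 3 or gal11-myc med3Δ CSM array 3. Other fits moved them up: with only the compared groups 14 were lower and 9 higher, against 25.1% and 39.0% of all genes in that fit, and with array weights 20 were lower and 11 higher, against 26.6% and 42.2%.

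The effect of gal11Δ med3Δ differed between the media for 17 of the 59 members outside chromosome II, and in all 17 it was lower in CSM than in YPD. The effect in CSM minus that in YPD had a median of -0.21, against 0.030 over all genes, of which 16% were lower and 15.1% higher in this test (11.9% and 16.2% of genes outside chromosome II). The 17 comprised 7 of 24 small subunit and 10 of 33 large subunit genes. On array 3 of gal11Δ med3Δ and of the wild type, the median over the 59 was 0.00 in both media. Of the 59, 28 were positive in YPD and negative in CSM and 1 was the reverse, whereas of the 5062 genes outside chromosome II these were 696 and 994. In gal11-myc med3Δ, 3 of the 59 passed, all lower in CSM (median -0.064, against 0.040 over all genes, of which 8.17% were lower and 5.51% higher, or 3.16% and 5.93% of genes outside chromosome II). The gal11Δ med3Δ count was 23 without wild type YPD array 3 and 22 without gal11Δ med3Δ CSM array 1, both of which stood apart; it was 14 at the lowest with any other array left out, and 5 without all arrays numbered 2, and without all arrays numbered 1 the median was -0.072. Array weights gave 41, against 60.6% of all genes in that fit. The gal11-myc med3Δ count was 8 without wild type YPD array 3 and 1 without wild type YPD array 1, gal11-myc med3Δ YPD array 1 or 3, wild type CSM array 1 or 2, or gal11-myc med3Δ CSM array 2.

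MRPL19 (YNL185C, uL11m, which in bacteria forms part of the site where translation factors bind) had the largest difference between media off chromosomes II and V in gal11Δ med3Δ. In YPD it stood at 0.22, 0.22 and 0.07 in gal11Δ med3Δ and at -0.17, -0.23 and 0.04 in gal11-myc med3Δ, against -0.29, -0.18 and 0.00 in the wild type. In CSM it stood at -0.29, -0.22 and -0.21 in gal11Δ med3Δ and at 0.01, -0.10 and 0.06 in gal11-myc med3Δ, against 0.25, 0.10 and 0.00 in the wild type. The gal11Δ med3Δ arrays were above all others in YPD and below all others in CSM, with differences from the wild type of 0.33 ± 0.09 (limma adjusted p = 0.00454) and -0.36 ± 0.09 (adjusted p = 0.00260). The difference between the effects was -0.69 ± 0.12 (adjusted p = 0.000407). In YPD gal11-myc med3Δ was below gal11Δ med3Δ by -0.29 (adjusted p = 0.0275), and in CSM it was above by 0.23, which did not pass (adjusted p = 0.0745).

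MRPS12 (YNR036C, uS12m of the decoding centre) had interactions in both mutants, -0.37 (limma adjusted p = 0.00696) in gal11Δ med3Δ and -0.32 (adjusted p = 0.0310, but 0.0614 without gal11-myc med3Δ YPD array 3) in gal11-myc med3Δ. In gal11Δ med3Δ it was higher in YPD by 0.19 (adjusted p = 0.0285) and lower in CSM, at -0.18 (adjusted p = 0.0373). RSM19 had an interaction of -0.40 in gal11-myc med3Δ (adjusted p = 0.0431, but 0.0582 with the replicate number as a block, 0.0747 without wild type YPD array 3 and 0.104 without gal11-myc med3Δ YPD array 3). MRPL11 (YDL202W, uL10m of the stalk base) had an interaction of -0.25 in gal11Δ med3Δ (limma adjusted p = 0.0493), which was lost without wild type YPD array 3 (adjusted p = 0.0607), gal11Δ med3Δ YPD array 3 (adjusted p = 0.0675) or gal11Δ med3Δ CSM array 1 (adjusted p = 0.0829). On chromosome II all 7 members had lower effects in CSM in both mutants, with medians of -0.96 and -0.93, and so did 269 and 285 of the chromosome's 387 genes.

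**Figure D5:**
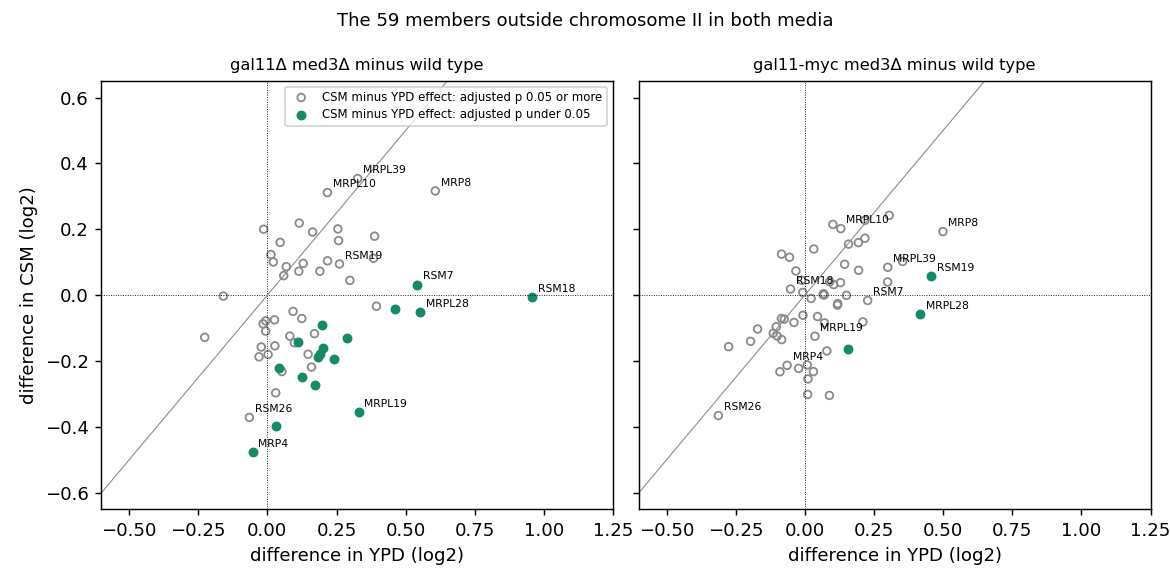
Difference from the wild type in CSM against that in YPD (both log2) for the 59 members outside chromosome II, in gal11Δ med3Δ (left) and gal11-myc med3Δ (right); filled points passed the test of the CSM effect minus the YPD effect (17 and 3 genes), and the diagonal marks equal effects. The filled points lie below the diagonal in both panels, with RSM18, MRPL28, RSM7 and MRPL19 to the right and MRP4 at the bottom on the left panel.

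Few of these genes differed between the mutants. In YPD gal11-myc med3Δ was below gal11Δ med3Δ for 3 of the 59 members outside chromosome II and above for 0 (8.96% and 6.15% of all genes), the 3 being RSM18, MRPL19 and MRPL35 (-0.18, limma adjusted p = 0.0233), with a median of -0.087. In CSM gal11-myc med3Δ was above for 3 and below for 2 (7.65% and 10.3% of all genes), with a median of 0.014. MRP4 (0.26, adjusted p = 0.00884), MRPL11 (0.24, adjusted p = 0.0203) and RSM27 (YGR215W, mS33, 0.23, adjusted p = 0.0475) were above. MRPL32 and RSM25 (YIL093C, mS23, -0.31, adjusted p = 0.0398) were below. RSM25 stood at -0.18, -0.18 and -0.08 in gal11-myc med3Δ, against 0.44, -0.05 and 0.09 in gal11Δ med3Δ, where the high value is array 1, which stood apart. Without that array 3 of these calls were lost: RSM25 was at -0.17 (limma adjusted p = 0.1503), RSM27 at 0.13 (adjusted p = 0.165) and MRPL11 at 0.19 (adjusted p = 0.0553). With the replicate number as a block RSM27 was lost too (limma adjusted p = 0.0818) and MRPL39 was gained, at -0.27 (adjusted p = 0.0449). No chromosome II member passed in either medium, with differences from -0.20 to 0.12 in CSM. The YPD count was 9 without gal11-myc med3Δ YPD array 3, which stood apart, and 1 without array 1 or 2 of either mutant; the CSM count was 2 without gal11Δ med3Δ CSM array 3 or gal11-myc med3Δ CSM array 1 or 3 and 1 without gal11-myc med3Δ CSM array 2.

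The other genes of mitochondrial gene expression were followed in lists by function, each compared with the wild type in gal11Δ med3Δ in YPD and CSM and then in gal11-myc med3Δ in YPD and CSM. In that order, 27.5%, 27.1%, 21.2% and 22.4% of all genes were called higher and 19.4%, 18.4%, 12.1% and 14.2% lower, and the counts of each list stand against those shares, with nothing particular to a list read from them. Of 14 mitochondrial ribosomal proteins with other names, 5, 0, 2 and 0 were higher and 1, 6, 0 and 1 lower. PET123 was higher in YPD by 0.56 in gal11Δ med3Δ and 0.33 in gal11-myc med3Δ. EHD3 (-0.40) and FYV4 (-0.38) were lower in gal11Δ med3Δ in CSM, and IMG2 (-0.25) was lower in gal11-myc med3Δ in CSM. RML2 (uL2m), on chromosome V like RSM18, was higher by 0.95 in gal11Δ med3Δ in YPD, and by 0.22 after subtraction of the chromosome's median (limma adjusted p = 0.0297).

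Of 16 mitochondrial aminoacyl-tRNA synthetases and amidotransferase subunits, 8, 1, 4 and 1 were higher and 2, 4, 0 and 1 lower in the same order. MSW1, the tryptophanyl-tRNA synthetase, was higher in all 4 comparisons, by 0.66, 0.22, 0.68 and 0.31. MSF1, the phenylalanyl-tRNA synthetase, was higher in YPD by 0.70 in gal11Δ med3Δ and 0.59 in gal11-myc med3Δ. MSK1, the lysyl-tRNA synthetase, was lower, at -0.36 in gal11Δ med3Δ in CSM. PET112, an amidotransferase subunit on chromosome II, was lower in CSM, at -0.96 in gal11Δ med3Δ and -1.05 in gal11-myc med3Δ, and at -0.30 and -0.38 relative to its chromosome.

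Of 9 translation factors, 2, 0, 0 and 0 were higher and 2, 1, 2 and 1 lower. MEF2, a factor of ribosome recycling, was lower in all 4 comparisons, at -0.99 in YPD and -0.96 in CSM in gal11Δ med3Δ, and in gal11-myc med3Δ at -0.83 in YPD and -0.55 in CSM. GUF1, the counterpart of the bacterial elongation factor LepA, was lower, at -0.30 in YPD in each mutant. Of 16 translational activators of mitochondrial mRNAs, 2, 1, 1 and 1 were higher and 3, 4, 2 and 2 lower. PET122, an activator of COX3 mRNA translation on chromosome V, was higher in YPD by 1.12 in gal11Δ med3Δ (0.39 relative to its chromosome) and by 0.59 in gal11-myc med3Δ. CBP6, an activator for COB mRNA on chromosome II, was lower in CSM, at -0.85 and -1.12 (-0.18 and -0.45 relative to its chromosome), while CBS1, another COB activator, was higher by 0.53 in gal11Δ med3Δ. CBP1, which stabilises COB mRNA, was lower, at -0.48 in gal11Δ med3Δ in YPD and -0.30 in gal11-myc med3Δ in CSM, and PET494 was lower, at -0.25 in gal11-myc med3Δ in YPD.

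Of 9 genes of ribosome assembly and rRNA modification, 1, 1, 0 and 0 were higher and 1, 1, 2 and 0 lower. This list includes RSM22, which is also among the members above. Its lower call in gal11-myc med3Δ in YPD is 1 of those 2. AFG3, a subunit of the m-AAA protease that matures MRPL32, lies on chromosome V and was higher by 1.01 in gal11Δ med3Δ in YPD (0.28 relative to its chromosome). MRH4, a helicase of large subunit assembly, was lower, at -0.26 in YPD and -0.37 in CSM in gal11Δ med3Δ and at -0.31 in gal11-myc med3Δ in YPD, and MTG1, a GTPase of large subunit assembly, was higher by 0.34 in gal11Δ med3Δ in CSM. Of 6 genes of mitochondrial transcription and RNA decay, 1, 0, 0 and 0 were higher and 1, 1, 2 and 2 lower. PET127, which acts in 5′ processing of mitochondrial RNA, was lower in all 4 comparisons, at -0.44, -0.72, -0.36 and -0.35. MTF1, the mitochondrial transcription factor, was higher by 0.32 in gal11Δ med3Δ in YPD, and DSS1, the exoribonuclease of the RNA degradosome, was lower, at -0.26 and -0.25 in gal11-myc med3Δ in YPD and CSM.

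The authors' deposited table of fold changes also covers these genes. In the authors' deposited table, all 7 chromosome II members were lower past its corrected p in CSM in each mutant. The authors' deposited table has 4 members outside chromosome II higher and 0 lower in gal11Δ med3Δ in YPD (13.4% and 8.59% of all its named probe sets), and 4 higher and 5 lower in CSM (17.2% and 13.0%). For gal11-myc med3Δ, the authors' deposited table has 1 higher and 0 lower in YPD (5.34% and 3.01% of all its named probe sets), and 7 higher and 14 lower in CSM (30.8% and 20.2%, or 32.9% and 15.2% outside chromosome II). The same table compares the wild type strains BY4741 and BY4742 in YPD, where no member passed and the members' log2 values in the authors' deposited table spanned -0.37 to 0.40. The 59 members outside chromosome II had a median of 0.069 there, against -0.024 over all genes of the authors' deposited table. LYS2 is at -6.47 in that comparison of the authors' deposited table, against the sign that the labels give. On the YPD arrays LYS2 stood at -0.26, 0.00 and 0.32 in the wild type, against -6.42, -6.65 and -6.36 in gal11Δ med3Δ. The wild type thus kept its LYS2 signal, and -6.47 reads as BY4742 below BY4741, the reverse of the heading. In that reading the members' median of 0.069, printed with the table's own sign, is higher in BY4742. In YPD gal11Δ med3Δ, also low in LYS2, had a median of 0.12 over the 59, against 0.028 over all genes. The part of strain background in that shift was not tested.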

How the data were processed

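The members and the other gene lists were chosen with earlier results of these data known. Deposited values are log2 for each of 10928 probe sets, made with RMA per the submitters' processing notes. The authors centred each probe set on its median within the 9 YPD, 9 CSM and 3 BY4742 arrays (found from the values: the medians are 0 for 100% of probe sets). The authors' deposited table gives fold changes as a signed score (a ratio, or minus its inverse for a fall) and p-values with a corrected p, made in GeneSpring 11.5.1 per the file headers, with the test not given in the sources used here. Differences of group means match its fold changes within 0.001 (log2) for 100% of probe sets in CSM, but for 2.80% (gal11-myc med3Δ) and 2.74% (gal11Δ med3Δ) in YPD.

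Probe sets were named through the platform table: 7244 have 1 symbol, 1 has several and 3683 have none, and 5498 matched the RefSeq gene table (used for names only), giving 5449 genes after 47 were averaged over their probe sets. Each member has 1 probe set. The model, fitted to 21 arrays in limma 3.58.1 (R 4.3.3; lmFit, eBayes), had 7 group means and 14 residual degrees of freedom, and tests were 2-sided, adjusted by Benjamini-Hochberg over all genes, and called at an adjusted p under 0.05. Fold changes are 2 to the power of the log2 difference. The scripts were tested on simulated data. Named members were all on chromosome II, all past 2-fold, and elsewhere the 4 highest and 4 lowest called against the wild type and the 3 highest and 3 lowest called in the other tests. Of each other list, at most the 2 largest called differences per comparison are named. Within YPD, arrays with the same replicate number deviated together (correlations of 0.146 to 0.606 in all 9 pairs). Array 3 of each strain correlated negatively with arrays 1 and 2 of the others. Arrays 1 and 2 of gal11-myc med3Δ and wild type did not pair by number. There, unlike numbers gave 0.375 and 0.450, and like numbers 0.146 and 0.404. In CSM the numbers did not pair arrays (-0.215 to 0.221). The tests printed here ignore any pairing. The replicate number as a block, set separately within each medium, was an alternative fit whose value is given where it changed a call.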

Additional observations from a re-analysis of the deposited data

Results flagged for a closer look

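Differences of an effect between media or between mutants that passed the test are given here for the 21 members with such a difference that the naming rule covers, as log2 values from limma with no explanation. Over all 66 members, 24 passed for gal11Δ med3Δ and 10 for gal11-myc med3Δ between media, 7 of each being on chromosome II. Of all genes, 16% were lower in CSM and 15.1% higher for gal11Δ med3Δ, and 8.17% and 5.51% for gal11-myc med3Δ. The effect of gal11Δ med3Δ in CSM, less that in YPD, was -1.10 for MRP21, -0.89 for MRPL16, -1.21 for MRPL27, -0.93 for MRPL36, -0.74 for MRPL37, -0.99 for MRPS5 and -0.96 for MRPS9, all on chromosome II, and -0.96 for RSM18 on chromosome V. Elsewhere it was -0.42 for MRP4, -0.44 for MRPL1, -0.25 for MRPL11, -0.69 for MRPL19, -0.60 for MRPL28, -0.43 for MRPL7, -0.37 for MRPS12 and -0.51 for RSM7. The effect of gal11-myc med3Δ in CSM, less that in YPD, was -0.997 for MRP21, -0.96 for MRPL16, -1.08 for MRPL27, -0.90 for MRPL36, -0.93 for MRPL37, -0.88 for MRPS5 and -0.84 for MRPS9, and elsewhere -0.48 for MRPL28, -0.32 for MRPS12 and -0.40 for RSM19.

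Between the mutants, gal11-myc med3Δ minus gal11Δ med3Δ was -0.29 for MRPL19, -0.18 for MRPL35 and -1.01 for RSM18 in YPD. In CSM it was 0.26 for MRP4, 0.24 for MRPL11, -0.28 for MRPL32, -0.31 for RSM25 and 0.23 for RSM27, the last 2 of which lost the call without gal11Δ med3Δ CSM array 1, as did MRPL11. The chromosome II members and RSM18 lie on chromosomes whose genes differed as a whole in the same comparisons, and the part of that in their values was not tested beyond the subtraction of each array's chromosome median. After that subtraction neither RSM18 difference passed. Of the 7 chromosome II members, 4 still passed between media for gal11Δ med3Δ and 1 for gal11-myc med3Δ.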

How the results depend on the processing

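Counts below are of the 59 members outside chromosome II and medians are log2, unless chromosome II is named. Fitting only the compared groups gave 10 higher and 0 lower in gal11Δ med3Δ in YPD (21.9% and 14.1% of all genes in the same fit), 4 and 1 in gal11-myc med3Δ in YPD (13.5% and 7.60%), 9 and 14 in gal11-myc med3Δ in CSM (39.0% and 25.1%), and 1 between the mutants in each medium (8.46% and 17.8%). Array weights (estimated gene by gene, since the planned estimate did not converge) gave 45 and 2 with a median of 0.23 in gal11Δ med3Δ in YPD (37.5% and 30.2% of all genes), 14 and 25 with a chromosome II median of -0.90 in CSM (38.8% and 30.5%), 16 and 6 in gal11-myc med3Δ in YPD (30.3% and 21.4%), 11 and 20 in CSM (42.2% and 26.6%), 41 (median -0.27, chromosome II -1.04) and 16 between media (60.6% and 42.2%), and 35 and 24 between the mutants (47.0% and 51.4%). The authors' deposited table gave 4 and 0, 5 lower, 1 and 0, and 7 and 14. Centring each array on its median gave 2 lower in gal11Δ med3Δ in YPD, 2 higher in CSM (median -0.11, chromosome II -0.90), 1 higher in gal11-myc med3Δ in CSM (median -0.039) and a median of 0.030 between the mutants in CSM. Without BY4742, 2 were lower in gal11Δ med3Δ in YPD and 3 differed between the mutants in CSM. With chromosome II members included the CSM medians were -0.10 and -0.059. Chromosome median centring was added after seeing the data. It gave 16 higher and 2 lower in gal11Δ med3Δ in YPD (25.1% and 20.7% of all genes in that fit). In gal11Δ med3Δ in CSM it gave 2 higher and 17 lower (24.8% and 18.3%), with a median of -0.13. There 4 chromosome II members were lower, with a median of -0.21 (30.2% of all genes of the chromosome). In gal11-myc med3Δ in CSM it gave 0 higher and 12 lower (20.3% and 12.1%), with a median of -0.052. There 3 chromosome II members were lower, with a median of -0.15 (28.2% of the chromosome). Between media the median was -0.26 in gal11Δ med3Δ, with 4 chromosome II members lower (-0.30, 21.2% of the chromosome). In gal11-myc med3Δ 1 chromosome II member was lower (-0.26, 9.56%). This centring turned 3 differences positive in CSM: 0.15 for MRPL16 and 0.043 for MRPL37 in gal11Δ med3Δ, and 0.033 for MRPL16 in gal11-myc med3Δ. Apart from the chromosome centring, the cause of these changes was not tested.

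With 1 array or replicate number left out, counts ran from 6 to 24 higher and 1 to 2 lower (median 0.061 to 0.22) in gal11Δ med3Δ in YPD, 1 to 11 higher and 5 to 11 lower (-0.094 to -0.038) in CSM, 4 to 10 higher and 1 to 5 lower (0.010 to 0.089) in gal11-myc med3Δ in YPD, and 0 to 2 higher and 0 to 5 lower (-0.051 to -0.0044) in CSM. Between media they ran from 5 to 23 (-0.33 to -0.072) and 0 to 8 (-0.12 to -0.022), and between the mutants from 1 to 10 (-0.17 to -0.041) in YPD and 1 to 6 (0.0016 to 0.056) in CSM. All 7 chromosome II members stayed lower in CSM, with medians from -0.90 to -0.80 and -0.89 to -0.76, and from -1.03 to -0.93 and -1.002 to -0.85 between media. With the replicate number as a block the counts were 20 and 1, 5 and 13, 7 and 3, and 2 and 7; beyond the changes given beside MRP8, MRP10, MRPL36, MRPL39, RSM7, RSM19 and RSM27 it changed no other call among the named members. Shares over all genes are not given for the fits with arrays left out, with the block, with array median centring or without BY4742. Those counts therefore show only how the members' calls moved. Of 89 calls of named members, 182 of 957 tests with arrays left out lost the call. A filter on dim probe sets could not be run, since the centred values keep no level.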
